A study of Mus spretus with 8 samples.

Results

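The Cyp3a genes encode cytochromes P450 of the liver and gut that hydroxylate steroids, bile acids and a broad range of drugs. Their expression was read from all probes of a liver microarray table whose annotated symbol was Cyp3a11, Cyp3a13, Cyp3a16, Cyp3a25, Cyp3a41a, Cyp3a41b, Cyp3a44 or Cyp3a59. This gave 10 of 42957 probes, for 7 of the 8 genes, and no probe for Cyp3a41a was analysed here. Cyp3a11, Cyp3a13 and Cyp3a59 had 2 probes each, and the other 4 genes had 1 each. Cyp3a57, a further gene of the family, is not among the 8.

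The DDE group held 4 male Mus spretus mice of the inbred SPRET/EiJ strain, which were 7 weeks old and ate a diet carrying p,p'-DDE at 450 mg/kg, dissolved in corn oil, over 30 days. The control group held 4 males of the same strain that ate the diet with corn oil alone. p,p'-DDE is a persistent breakdown product of the insecticide DDT. Each array measured 1 mouse, so the number of arrays limits the precision, and each value below is a log2 signal as the authors deposited it. The model has 2 limits for these genes, as the probes were made for mouse reference sequence while the mice are another species, and as probe sequences were not used here.

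Cyp3a genes are standard targets of the pregnane X receptor, PXR, the product of Nr1i2. PXR binds foreign compounds and steroids, pairs with the retinoid X receptor and switches on P450 enzymes, conjugating enzymes and transporters. In laboratory mice, Cyp3a11 is the main drug-oxidizing member in adult liver, Cyp3a13 is also expressed in the intestine, and Cyp3a25 is expressed in liver of both sexes. Cyp3a41a, Cyp3a41b and Cyp3a44 are expressed mainly in females, and Cyp3a16 is known from fetal and newborn liver. Several Cyp3a transcripts are closely similar, so a probe may bind more than 1 of them, and signals of single genes are uncertain for that reason.

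The scale ended at 16 on every array, and between 0.715% and 0.768% of the probes of an array had 15.5 or more, which is called near the top below. Background levels, set from olfactory and vomeronasal receptor probes, lay between 7.55 and 7.81. Stained patches covered from 0.521% (DDE 1) to 9.5% (control 4) of the spots, and 9 of the 80 Cyp3a spots lay in one, 6 in DDE arrays and 3 in control arrays. Of 7 hepatocyte markers, all were above background on all 8 arrays, and none passed the test. All 4 pancreas markers (Cpa1, Prss1, Cela1 and Ins2) were above background on every array as well. Their mean level ranged from 10.13 to 13.61 in DDE livers and from 9.78 to 14.66 in control livers, and none passed. No marker list of Kupffer cells, endothelium, bile duct, enterocytes or lymphocytes had a member that passed, and of 5 stellate cell markers 1 did, Reln, which had 6 of its 8 values at or below background. In whole tissue, fewer cells of a type and less RNA per cell cannot be told apart.

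All 10 Cyp3a probes were above background on all 8 arrays. After DDE, 4 of them rose, 0 fell and 6 did not pass the test, which was limma with Benjamini-Hochberg adjustment over all probes. The 4 probes belong to 3 genes, Cyp3a11, Cyp3a13 and Cyp3a41b. Over all probes of the arrays 2.34% were called higher and 0.661% lower, and among the 13662 probes above background on all arrays 5.99% were called higher and 1.47% lower. DDE and control values did not overlap at those 4 Cyp3a probes and at no other of the 10, while 11.8% of all probes had no overlap, in either direction. The median log2 change of the 10 probes was 0.48. That of all probes was 0.02, and that of the 13662 probes above background on all arrays was 0.155. Before adjustment, 5 probes were higher and 1 was lower at p under 0.05.

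**Figure D1:**
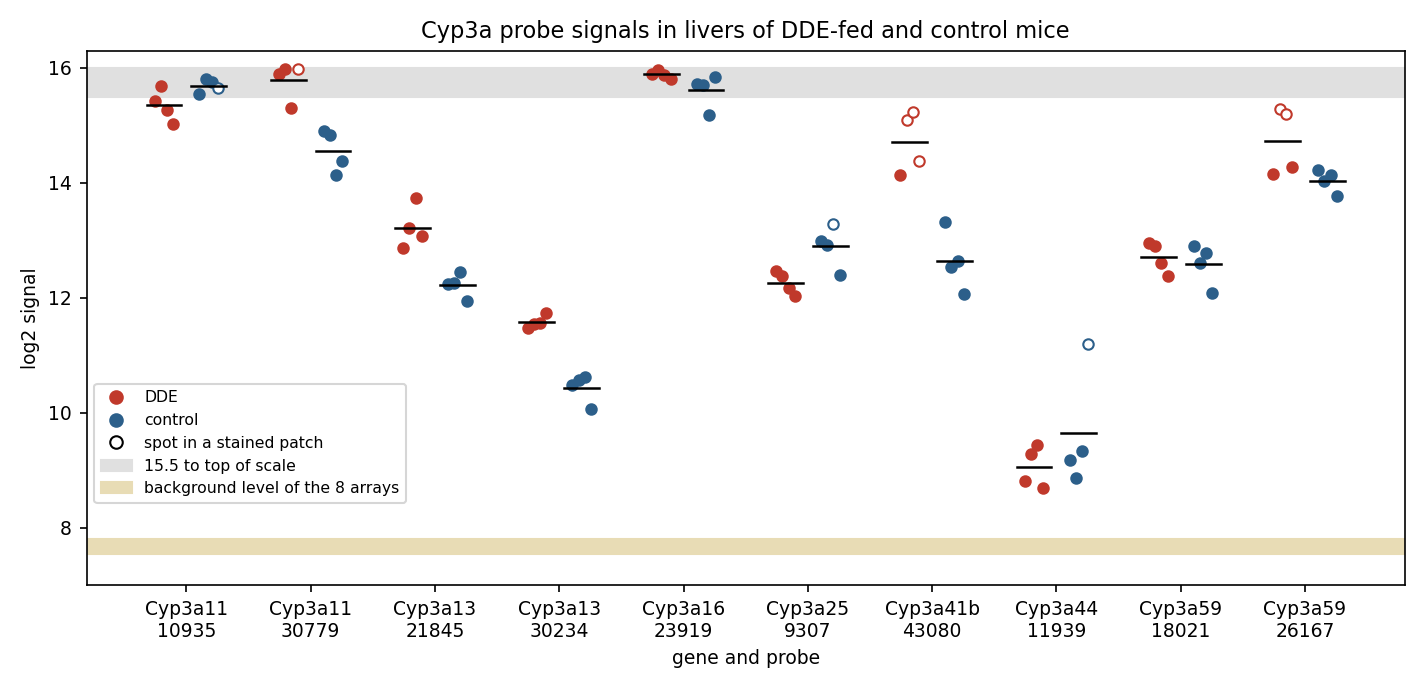
Log2 signal (y axis) of the 10 Cyp3a probes (x axis) in 4 DDE (red, left) and 4 control livers (blue, right), 1 point per mouse with the group mean as a bar; open points lie in stained patches, the grey band runs from 15.5 to the top of the scale and the tan band spans the background levels of the 8 arrays. The groups are apart at the second Cyp3a11 probe, both Cyp3a13 probes and Cyp3a41b, and both groups of Cyp3a16 reach the grey band.

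Cyp3a13 rose at both of its probes, and none of their 16 spots lay in a stained patch. Probe 30234 had 11.47, 11.55, 11.56 and 11.74 in DDE livers 1 to 4, against 10.48, 10.58, 10.63 and 10.06 in control livers 1 to 4. Every DDE value lay above every control value, and control 4 was the lowest. The means were 11.58 ± 0.11 in DDE livers and 10.44 ± 0.26 in control livers (SD, n = 4 each), a log2 change of 1.14 ± 0.14 (SE) or 2.21-fold, with a limma adjusted p of 0.0119. With any 1 of the 8 arrays left out it still passed, at adjusted p from 0.00915 to 0.0468.

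Probe 21845 of the same gene had 12.87, 13.22, 13.73 and 13.08 in DDE livers, against 12.25, 12.26, 12.45 and 11.94 in control livers. The groups were again apart, with DDE 3 the highest and control 4 the lowest. The means of 13.23 ± 0.37 in DDE livers and 12.23 ± 0.21 in control livers (SD, n = 4 each) gave a log2 change of 1.00 ± 0.20 (SE), or 2.00-fold, and a limma adjusted p of 0.0473. This call lay close to the threshold and was lost with any 1 of the 8 arrays left out (adjusted p from 0.0639 to 0.13, with changes from 0.83 to 1.12). The log2 changes of both probes differed by 0.14, which an exact two-sided permutation test did not separate (p = 0.457, n = 4 each).

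Cyp3a11 rose at 1 of its 2 probes and did not pass at the other, and both had values near the top of the scale. Probe 30779 had 15.90, 15.99, 15.30 and 15.98 in DDE livers, against 14.90, 14.83, 14.13 and 14.38 in control livers. The groups did not overlap, and 3 of the 4 DDE values were near the top, so the change is a lower bound. Here and below, such bounds refer to the top of the scale or to background, not to the spread between mice. Means were 15.79 ± 0.33 in DDE livers and 14.56 ± 0.37 in control livers (SD, n = 4 each), at least 2.35-fold higher. The 95% interval of the measured fold was from 1.615 to 3.418, with a limma adjusted p of 0.04. The spot of DDE 4 was stained, and without it the log2 change was 1.17 (adjusted p = 0.0587). With 1 array left out, it passed only without DDE 3 (adjusted p = 0.041), and leaving out any of the other 7 gave adjusted p from 0.0558 to 0.119.

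The other Cyp3a11 probe, 10935, had 15.43, 15.69, 15.27 and 15.02 in DDE livers, against 15.55, 15.80, 15.76 and 15.65 in control livers. All 4 control values and 1 DDE value were near the top, and 3 of the 4 DDE values lay below every control value. Its log2 change was -0.34 with a 95% interval from -0.68 to 0.01 and did not pass (limma adjusted p = 0.344). A rise of the size seen at probe 30779 would have exceeded the scale here, but the DDE mean of 15.35 lay below the control mean of 15.69. Why the 2 probes differ was not tested. The 2 changes differed by -1.57 (probe 10935 minus probe 30779, exact permutation p = 0.0286, the smallest that 4 arrays against 4 allow, and adjusted p = 0.0857 over the 3 genes with 2 probes).

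Cyp3a41b, a gene expressed mainly in female mice, had the largest measured log2 change of the 10 probes, although those of Cyp3a11 and Cyp3a16 were limited by the top of the scale. It had 14.14, 15.09, 15.24 and 14.39 in DDE livers, against 13.32, 12.53, 12.64 and 12.07 in control livers. The groups were apart, DDE 2 and DDE 3 were the highest, and control 1 was the highest control. The means were 14.72 ± 0.53 in DDE livers and 12.64 ± 0.52 in control livers (SD, n = 4 each), a log2 change of 2.08 ± 0.34 (SE) or 4.21-fold, with a limma adjusted p of 0.0288. The DDE spots of mice 2, 3 and 4 lay in stained patches, whose spots were brighter by a median of 0.79, 1.28 and 0.66, while no control spot did. DDE 1, on a clean spot, still lay above the highest control. With stained spots left out, the log2 change was 1.5 and did not pass (adjusted p = 0.221, 1 DDE and 4 control arrays). The call was also lost without DDE 2 (adjusted p = 0.091), DDE 3 (0.0711), control 2 (0.0859) or control 3 (0.0774), with log2 changes from 1.89 to 2.30 over all 8 arrays left out in turn.

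**Figure D2:**
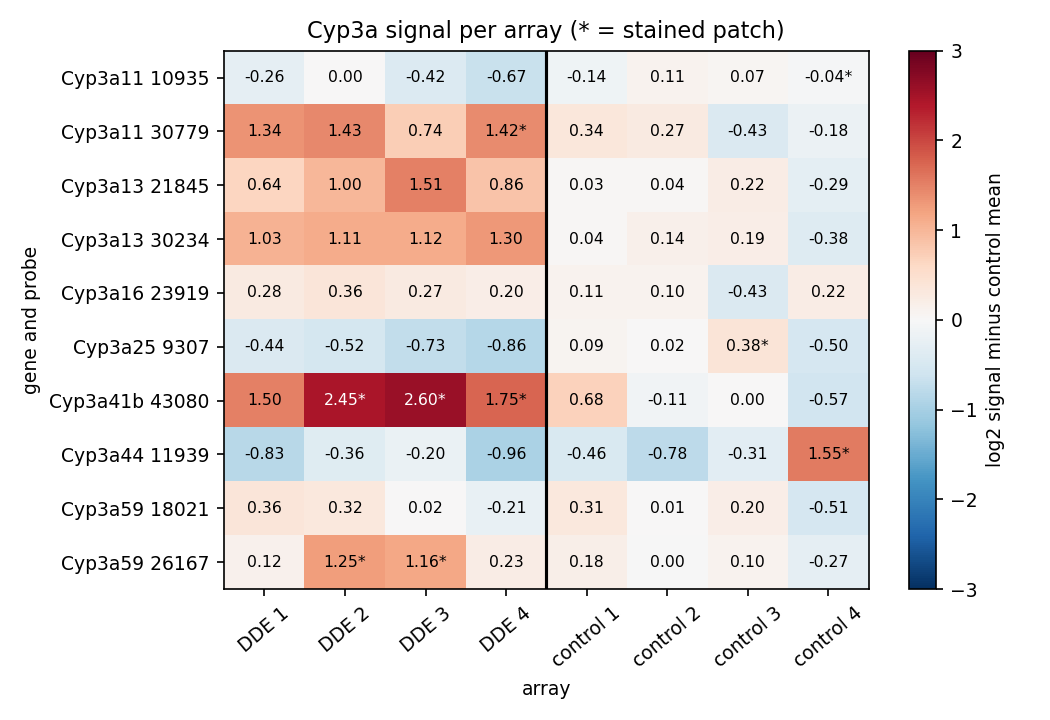
Log2 signal of each Cyp3a probe (rows) on each array (columns, DDE left of the line and control right of it) minus the mean of the 4 control arrays; red is higher, blue is lower and an asterisk marks a spot in a stained patch. Cyp3a41b and probe 26167 of Cyp3a59 are highest in DDE 2 and DDE 3, where both spots are stained, and Cyp3a44 stands out in control 4, also on a stained spot.

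Cyp3a59, a member of the same subfamily, did not pass at either probe. Probe 26167 had 14.16, 15.29, 15.20 and 14.27 in DDE livers, against 14.22, 14.04, 14.14 and 13.77 in control livers. DDE 2 and DDE 3 lay about 1 log2 unit above the rest, and both spots were stained, while DDE 1 and DDE 4 lay close to the controls. The log2 change was 0.69 with a 95% interval from 0.01 to 1.37 (limma adjusted p = 0.328), and it was 0.17 with stained spots left out. Probe 18021 had values from 12.38 to 12.95 in DDE livers and from 12.08 to 12.90 in control livers, with a log2 change of 0.12 and a 95% interval from -0.38 to 0.62 (limma adjusted p = 0.789). The changes of both probes differed by 0.57 (exact permutation p = 0.171).

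At both Cyp3a41b and probe 26167 of Cyp3a59, DDE 2 and DDE 3 lay above DDE 1 and DDE 4, and the spots of DDE 2 and DDE 3 were stained at both probes. In DDE livers the pancreas markers ran the other way, with mean levels of 13.61, 10.13, 12.14 and 13.10 in DDE livers 1 to 4. In control livers 1 to 4 the mean levels were 14.66, 9.78, 13.00 and 12.33, and control 1 was also the highest control at both probes. The part of the pancreas markers in these results was not tested.

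Cyp3a25, a testosterone-hydroxylating member, was the lowest in its log2 change. It had 12.46, 12.38, 12.17 and 12.04 in DDE livers, against 12.99, 12.92, 13.28 and 12.40 in control livers. Control 4 was the only control within the DDE range, and the stained spot was that of control 3, the highest value. The log2 change was -0.64 with a 95% interval from -1.09 to -0.18, and it did not pass over all probes (unadjusted p = 0.0131, limma adjusted p = 0.157). Without control 4 the log2 change was -0.80 and passed (adjusted p = 0.0445), and without the stained spot it was -0.51 (adjusted p = 0.202).

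Cyp3a16 had 15.89, 15.97, 15.88 and 15.81 in DDE livers, against 15.72, 15.71, 15.19 and 15.84 in control livers. All 4 DDE values and 3 of the 4 control values were near the top, so no fold is given, and a rise could not have been measured at this probe. Its log2 change of 0.27 had a 95% interval from -0.06 to 0.61 and a limma adjusted p of 0.465.

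Cyp3a44, another form typical of females, had 8.81, 9.29, 9.45 and 8.69 in DDE livers, against 9.18, 8.87, 9.33 and 11.20 in control livers. The groups overlapped apart from control 4, whose spot lay in a patch brighter by a median of 2.92. The log2 change was -0.59 with a 95% interval from -1.78 to 0.61 (limma adjusted p = 0.633), and it was -0.07 with that spot left out. Changes of the size measured for Cyp3a41b lie outside the first interval.

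**Figure D3:**
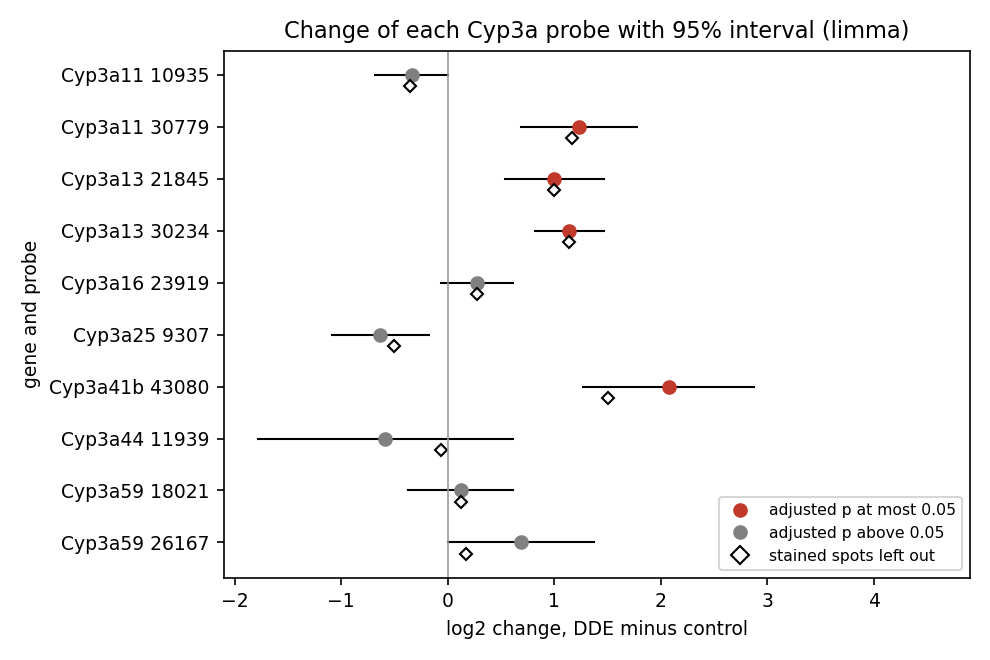
Log2 change, DDE minus control (x axis), of each Cyp3a probe (y axis) with its 95% interval from limma (line), in red where the adjusted p was at most 0.05; open diamonds give the change with stained spots left out. The 4 probes in red changed by 1.00 to 2.08, and without stained spots Cyp3a41b moves to 1.5 and probe 26167 of Cyp3a59 to 0.17.

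The responses of the 7 genes were then compared in pairs. Each of the 21 pairs was tested by the difference of the log2 changes, with an exact two-sided permutation test over the 70 splits of the arrays and Benjamini-Hochberg adjustment over the pairs. In 13 pairs p was 0.0286, the smallest that 4 arrays against 4 allow, and the adjusted p was 0.0462. Of these, 5 used Cyp3a11 or Cyp3a16, which were read near the top of the scale, so that a small change there may be set by the scale, and their differences are not given. Among the 10 pairs of the other 5 genes, a comparison added after the values were seen, 8 passed (exact permutation adjusted p = 0.0357). Cyp3a41b changed more than probe 21845 of Cyp3a13 by 1.08 ± 0.26 (SE), than probe 26167 of Cyp3a59 by 1.39 ± 0.19, than Cyp3a44 by 2.66 ± 0.74 and than Cyp3a25 by 2.71 ± 0.36. Cyp3a13 changed more than Cyp3a25 (1.64 ± 0.25) and Cyp3a44 (1.59 ± 0.63). Probe 26167 of Cyp3a59 also differed from Cyp3a25 (1.32 ± 0.33) and Cyp3a44 (1.27 ± 0.63). Stained spots entered these differences. With them left out, the log2 change was 0.17 against 0.69 at probe 26167 and -0.07 against -0.59 for Cyp3a44. It was -0.51 against -0.64 for Cyp3a25 and 1.5 against 2.08 for Cyp3a41b, which had 1 DDE array left.

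The other 2 of these 10 pairs did not pass. Cyp3a13 and Cyp3a59 differed by 0.31 ± 0.21 (SE, exact permutation p = 0.2), and Cyp3a44 and Cyp3a25 by 0.05 ± 0.71 (p = 0.971). With stained spots left out, the 6 pairs with Cyp3a41b could not be tested, as it had 1 DDE array left. None of the other 15 pairs of the 21 could have passed, as several kept too few arrays for a small p. This setting therefore cannot decide whether the responses differ (smallest adjusted p 0.107, 4 pairs at an unadjusted exact p under 0.05). Leaving out 1 array left 12 of the 21 pairs without control 4 and 0 pairs without any other array, where the smallest adjusted p was from 0.0545 to 0.075 and 8 to 11 pairs had an unadjusted exact p under 0.05.

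Other genes of the pathway were read from fixed lists, each gene at its brightest probe. The lists were chosen with earlier results of these data known, so their counts only describe these arrays. Over all 22471 genes read that way 2.58% were called higher and 0.774% lower, with a median log2 change of 0.02. For the 13662 probes above background on all arrays the median was 0.155. Of 15 measured genes of PXR and its partners, 1 rose and 0 fell, with 14 not past the test and a median log2 change of 0.11. The 1 that rose was Nr1i2, the gene of PXR itself, with 8.36, 8.14, 8.10 and 8.22 in DDE livers, against 7.59, 7.70, 7.58 and 7.48 in control livers. It was above background in all 4 DDE livers and in 1 of 4 control livers, so it was at least 1.43-fold higher (limma adjusted p = 0.0153). Nr1i3, the gene of the related receptor CAR, had 10.90 ± 0.50 in DDE livers and 10.33 ± 0.76 in control livers (SD, n = 4 each, limma adjusted p = 0.617). Rxra, a partner of PXR, had 8.60 ± 0.32 in DDE livers and 9.03 ± 0.87 in control livers (limma adjusted p = 0.637), with a stained spot in control 4, without which the log2 change was 8e-04, against -0.43 with it.

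Of 35 measured PXR target genes outside Cyp3a, 13 rose, 0 fell and 22 did not pass, with a median log2 change of 0.82. Many of these genes also answer to CAR. Of the 22, 5 had all DDE values near the top (Cyp2c29, Cyp2c50, Cyp2c54, Aldh1a1 and Gstm1), and 3 of these 5 had other probes that were called higher. These were 7 of 10 probes for Cyp2c29, 2 of 3 for Cyp2c54 and 1 of 2 for Gstm1. At the brightest probe of Cyp2c50, Cyp2c54 and Gstm1 all control values were near the top as well, so a rise could hardly be measured there. The brightest probes of Cyp2c29 and Aldh1a1 had measured log2 changes of 0.685 and 0.525, limited by the scale, and did not pass (limma adjusted p = 0.0806 and 0.0884). The 8 with the largest measured log2 changes among the 13 were Cyp2b10, Cyp2c55, Gstm4, Slco1a4, Ugt2b5, Gstm3, Cd36 and Cyp2c37, an order that holds lower bounds for those near the top or at background. They include P450 enzymes (Cyp2b10, Cyp2c55 and Cyp2c37), glutathione S-transferases (Gstm4 and Gstm3), a glucuronosyltransferase (Ugt2b5), an organic anion transporter (Slco1a4) and a fatty acid transporter (Cd36). Cyp2b10, the usual marker of CAR, was at least 124.1-fold higher, with 15.97 ± 0.03 in DDE livers and 9.01 ± 0.37 in control livers (SD, n = 4 each), where all DDE values were near the top (limma adjusted p = 2.44e-05). Cyp2c55 had 12.22, 13.28, 13.37 and 12.72 in DDE livers, against 7.35, 7.31, 7.18 and 7.62 in control livers, where 1 value was above background, and it was at least 37.2-fold higher. The groups also did not overlap for Gstm4 (8.34-fold higher), Slco1a4 (7.69-fold), Ugt2b5 (5.21-fold), Gstm3 (at least 5.05-fold) and Cd36 (4.06-fold), with limma adjusted p from 2.44e-05 to 0.0482. Only 1 of the 2 Gstm3 probes was called higher, and 1 Cd36 spot lay in a stained patch. Cyp2c37, like probe 30779 of Cyp3a11, had all or most of its DDE values near the top and was at least 3.44-fold higher. Abcb1a, the gene of the drug efflux pump P-glycoprotein, had 8.93 ± 0.53 in DDE livers and 8.10 ± 1.15 in control livers (SD, n = 4 each) and did not pass (log2 change 0.83, limma adjusted p = 0.596). The spot of control 2, its highest control value, was stained, and without it the log2 change was 1.4 (adjusted p = 0.0506).

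P450 enzymes need electrons and heme. Of 11 measured genes for these, 1 rose and 0 fell, with a median log2 change of 0.26. Pgrmc1, a heme-binding partner of P450 enzymes, had 15.38, 15.46, 15.05 and 15.63 in DDE livers, against 14.58, 14.62, 14.36 and 14.26 in control livers, at least 1.90-fold higher as 1 DDE value was near the top (limma adjusted p = 0.0243). This call was lost without DDE 1 (adjusted p = 0.0708), DDE 2 (0.0817), control 2 (0.0579) or control 3 (0.0704). Alas1, the first enzyme of heme synthesis and also on the list of PXR targets, had 15.29, 15.86, 15.69 and 15.33 in DDE livers, against 11.61, 11.99, 14.66 and 13.69 in control livers. The groups did not overlap, the controls spanned more than 3 log2 units, and the gene did not pass (log2 change 2.56 ± 0.67 SE, limma adjusted p = 0.105). However, 1 of its spots lay in a stained patch, and without it the log2 change was 3.11 and passed (limma adjusted p = 0.0248).

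**Figure D4:**
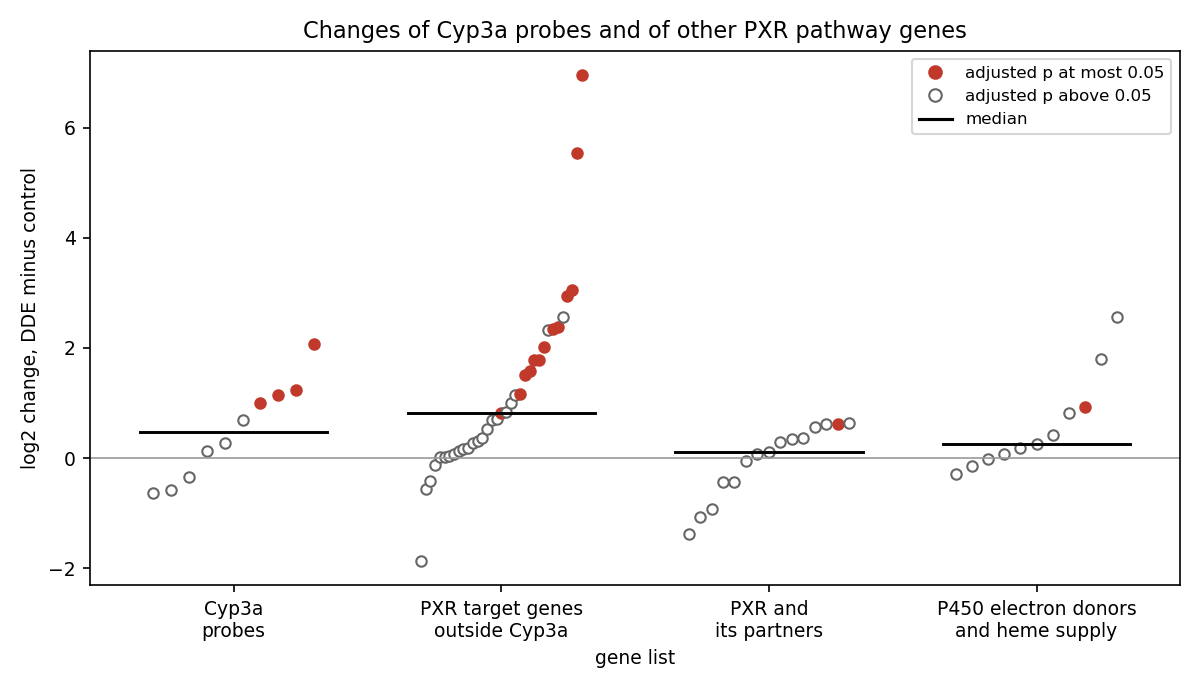
Log2 change, DDE minus control (y axis), of the 10 Cyp3a probes and of the genes of 3 fixed lists (x axis), 1 point per probe or gene, red where the limma adjusted p was at most 0.05, with the median of each list as a bar. The medians are 0.48 for Cyp3a probes, 0.82 for the other PXR targets, 0.11 for PXR and its partners and 0.26 for electron donors and heme supply.

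The pattern most like that of Cyp3a13 over the arrays was sought for probe 30234, the Cyp3a probe with the smallest p. Of 11282 other named probes above background on all arrays and not near the top on any, the 5 genes most like it were Nbdy, Rnasek, Auh, Eif6 and Gtf2a2, with Pearson r from 0.987 to 0.992 over the 8 arrays. As the arrays form 2 groups, any probe that differs between them scores high, and 736 probes had r over 0.9. Eif6, a ribosome assembly factor, had 12.37, 12.61, 12.73 and 12.55 in DDE livers, against 11.37, 11.41, 11.44 and 10.93 in control livers, with control 4 the lowest as in Cyp3a13.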

How the data were processed

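Total RNA of 8 livers was labelled with Cy3 and hybridized to 1-colour Agilent arrays, per the labels' protocols. The deposited values are log2 signals with nearly the same quantiles on all 8 arrays, and they were analysed unaltered. How they were scanned, background-corrected and normalized by the authors is not given in the sources used here.

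Each of 42957 probes was tested with limma 3.58.1 in R 4.3.3 (lmFit and eBayes, DDE against control, no covariate, two-sided, Benjamini-Hochberg over all probes, threshold 0.05), after a test of the code on simulated data. Symbols came from the platform annotation (33009 probes with 1 symbol, 0 with several, 9948 with none). List genes were read at their brightest probe by mean signal. Responses of 2 Cyp3a genes were compared by exact two-sided permutation of the 8 arrays on the difference of their probes within each array, using the brightest probe with no value near the top, or the brightest where there was none. Background was the 0.95 quantile of 1622 olfactory and vomeronasal receptor probes per array. Stain was sought on a grid of 85 spots per row, and a spot counted as stained if its neighbourhood (7 rows, 5 columns) deviated from the other arrays by a median above 0.3 in size. The members, the lists and these rules were chosen with earlier results of these data known. Genes outside Cyp3a were named where they passed (at most 8 per list and direction), and Nr1i2, Nr1i3, Rxra, Cyp2b10 and Abcb1a whatever their values. Some genes of these lists, among them Por, Ces2c, Ugt1a1, Ugt1a9 and Akr1b7, were not analysed here. Alternatives were other normalizations, filters, variance models and tests, leaving out arrays or stained spots, averaging a gene's probes and the replicate number as a block. Same-numbered arrays did not deviate together (r across probes from -0.01 to 0.08), so the numbers were not taken to pair mice, and p-values measure the spread between mice of a group. The stained share did rise with the number in both groups, from 0.521% to 7.59% in DDE arrays 1 to 4 and from 1.16% to 9.5% in control arrays 1 to 4. What else the numbers track was not tested.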

Additional observations from a re-analysis of the deposited data

Results flagged for a closer look

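Of 56 groups of 4 arrays examined for 28 named probes, 4 had 1 array far from the other 3, where chance gives about 1 in 20. For probe 30779 of Cyp3a11, DDE 3 had 15.3 and the other DDE livers 15.90 to 15.99, close to the top of the scale. For Cyp2b10, control 4 had 9.57 and the other controls 8.79 to 8.87, with no stain. The other 2 lay in stained patches. Rxra had 10.31 in control 4 and 8.48 to 8.77 in the other controls, and Abcb1a had 9.81 in control 2 and 7.35 to 7.68 in the other controls.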

How the results depend on the processing

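The count of 4 higher Cyp3a probes was within 1.5 times in 6 of 20 alternatives. It was 2 with an intensity trend and robust variance, with stained spots left out and when probes of a gene were averaged (7 genes), 1 with an ordinary t statistic and 1 without control 4 and DDE 4 together (chosen after seeing the data). It was 1 to 2 when 1 array was left out, and 0 with the replicate block. The count of lower ones was 0 to 1 with 1 array left out. The count of all probes called, 1289, was 511 with the trend, 2140 with array weights, 9 with the replicate block, 775 with gene means, 519 with the ordinary t statistic and 332 to 1596 with 1 array left out. Target genes called higher, 13, were 2 with the block and 8 to 13 with 1 array left out. Among lower ones, Insig1 was the 1 called without control 4 and DDE 4. For PXR and its partners, the higher count of 1 was 0 with the trend and the block and 1 to 2 with 1 array left out. The lower count of 0 became 1, Ppargc1a, with stained spots left out and without control 4 and DDE 4, and was 0 to 1 with 1 array left out. For electron donors and heme supply, the higher count of 1 was 2 with array weights and with stained spots left out (Alas1 added), 0 with the block, the ordinary t statistic and without control 4 and DDE 4, and 0 to 1 with 1 array left out. The 13 of 21 pairs of Cyp3a genes became 8 of 10 without genes near the top (chosen after seeing the data) and 0 to 12 with 1 array left out. With stained spots left out it was 0 of 15, but those 15 could not have passed with the arrays left, and the 6 with Cyp3a41b could not be tested. Signs turned for probe 10935 of Cyp3a11 with gene means (0.45), for Cyp3a44 without control 4 and DDE 4 (0.057) and for probe 18021 of Cyp3a59 without control 4 (-0.051, against up to 0.23 with another array left out). The cause was not tested. Quantile normalization, centring on the 75th percentile, the background floor, leaving out dimmer probes and a fold of at least 1.5 kept each count above within 1.5 times. Signal near the top limits Cyp3a11, Cyp3a16 and several of the other PXR targets.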
